A study of Mus musculus with 15 samples.

Results

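The genes *Lct*, *Sis*, *Mgam*, *Treh*, *Slc5a1*, *Slc2a2*, *Slc2a5* and *Khk*, which encode the disaccharidases of the intestinal brush border, the main sugar transporters of the enterocyte and the first enzyme of fructose breakdown, were followed in the ileum of mice given proanthocyanidins (PAC). They were taken by name, with earlier results of these data known, from the 17752 genes listed in at least 1 of 15 RNA-seq libraries. All 8 were listed in every mouse and all 8 passed the filter on low counts that kept 14386 genes for testing.

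The 15 libraries came from 15 female C57BL/6 mice aged 8 weeks, 5 in each of 3 groups, and each library holds RNA from the intestine of 1 mouse. By gavage, the mice received water (the controls), low molecular weight PAC (low PAC) or high molecular weight PAC (high PAC), both fractions derived from grape and given at 200 mg/kg every 2 days for 10 days. The methods of the study describe the tissue as ileum and the fraction that the labels name high PAC as one of medium mean degree of polymerization. PAC are polymers of flavan-3-ol units, and the 2 fractions differ in the length of the chains. The question addressed by the comparisons is whether oral PAC, and the size of its polymers, alter expression in the gut wall. By the methods of the study the mice were of the substrain C57BL/6JOlaHsd and ate a purified control diet throughout. How the mice were caged and the time of day at which the tissue was taken are not given in the sources used here.

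Dietary disaccharides are split at the surface of the enterocyte by hydrolases anchored in its apical membrane, and the monosaccharides released are carried through the cell by transporters of the SLC5 family, which are driven by sodium, and the SLC2 family, which work by facilitated diffusion. Glucose and galactose enter through SGLT1 (*Slc5a1*), fructose enters through GLUT5 (*Slc2a5*), and all leave towards the blood through GLUT2 (*Slc2a2*), while part of the fructose is phosphorylated in the enterocyte by ketohexokinase (*Khk*). These proteins are made mainly by mature enterocytes of the villus. They are known to be more abundant in the proximal than in the distal small intestine, and lactase is known to decline after weaning.

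The stretches upstream of *Lct*, *Sis* and *Mgam* are shown because these 3 hydrolase genes held most of the matches to sites of intestinal transcription factors. Each is the 250 bases before the RefSeq start of the gene (GRCm38.p6), read in the direction of transcription, at chr1:128328319-128328568 (minus strand) for *Lct*, chr3:72967864-72968113 (minus strand) for *Sis* and chr6:40628581-40628830 (plus strand) for *Mgam*. Capitals mark matches on either strand to GATAA (GATA factors) or TTTAT (CDX factors).
Lct: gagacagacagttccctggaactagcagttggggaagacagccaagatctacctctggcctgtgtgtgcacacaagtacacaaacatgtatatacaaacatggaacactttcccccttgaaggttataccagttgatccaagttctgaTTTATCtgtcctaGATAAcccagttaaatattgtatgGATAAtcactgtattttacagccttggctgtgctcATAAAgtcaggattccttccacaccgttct
Sis: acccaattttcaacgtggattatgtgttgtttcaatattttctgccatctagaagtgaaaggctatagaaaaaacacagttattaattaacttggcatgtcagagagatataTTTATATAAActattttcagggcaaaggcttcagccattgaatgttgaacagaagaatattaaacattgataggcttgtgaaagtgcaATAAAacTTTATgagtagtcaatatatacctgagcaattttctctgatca
Mgam: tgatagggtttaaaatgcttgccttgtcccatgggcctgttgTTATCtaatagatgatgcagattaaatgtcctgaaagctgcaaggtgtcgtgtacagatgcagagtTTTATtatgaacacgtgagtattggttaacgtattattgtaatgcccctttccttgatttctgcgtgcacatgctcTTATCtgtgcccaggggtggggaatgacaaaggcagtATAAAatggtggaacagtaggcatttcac

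Upstream windows were found for all 8 genes among 32851 RefSeq windows of the same length, of which 12736 belonged to genes averaging 1 FPKM or more over the mice (expressed genes). GATAA occurred 3 times in the window of *Lct*, 2 times in that of *Mgam* and 1 time in that of *Slc2a2*, and at least 1 time in 22.6% of all windows and 15.3% of those of expressed genes. TTTAT occurred 4 times upstream of *Sis* and 2 times each upstream of *Lct* and *Mgam*, and at least 1 time in 37.3% of all windows and 24.7% of those of expressed genes. In *Lct*, 1 of the TTTAT matches overlaps a GATAA match. The letters TATAAA, the core of many promoters, were found upstream of *Sis* and *Mgam* and in 12.4% of all windows and 6.87% of those of expressed genes. They can overlap TTTAT matches. The HNF4 letters CAAAGTCCA were found upstream of *Treh* and in 0.384% of all windows and 0.424% of those of expressed genes. The windows of *Slc5a1*, *Slc2a5* and *Khk* held none of these letters. These matches are a description of the sequence and do not show binding.

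The libraries held between 15963086 and 17903886 expected counts. The distal ileum genes, a list of 20 that includes the bile acid carriers, summed to between 10350 and 16260 FPKM in every mouse, while the pancreatic genes listed in the files summed to at most 2.84 FPKM. High PAC mouse 3 stood apart in that its counts came from shorter transcripts, with a count-weighted mean transcript length of 3129 bases against 3529 to 3681 in the other 14 mice. Where leaving it out moved an estimate by over 1.5 times or changed a call of the 8 genes, both values are given. Expression was measured in whole tissue, so fewer enterocytes and less RNA per enterocyte cannot be told apart in any value that follows.

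In the water group, the order of the mean levels in FPKM (mapped fragments per length of transcript and per library size, a scale on which genes of different length can be compared) was *Sis* 769, *Mgam* 557, *Slc5a1* 458, *Khk* 64.4, *Lct* 56.3, *Treh* 48.2, *Slc2a5* 23.3 and *Slc2a2* 15.6. Among all genes, *Sis* ranked 76, *Mgam* 123 and *Slc5a1* 160 by their water mean, so that the sucrase, the maltase and the sodium glucose transporter belonged to the most abundant transcripts, while *Slc2a2* ranked 4468. The ranges of the 5 water mice did not overlap between *Slc5a1* and *Khk*, nor between *Treh* and *Slc2a5*. All other neighbours in the order overlapped in range, and *Lct* exceeded *Treh* in only 2 of the 5 water mice. The *Sis* level exceeded that of *Mgam* by a factor between 1.02 and 1.57 in 14 of 15 mice, and the ratio was 0.844 in high PAC mouse 3.

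**Figure D1:**
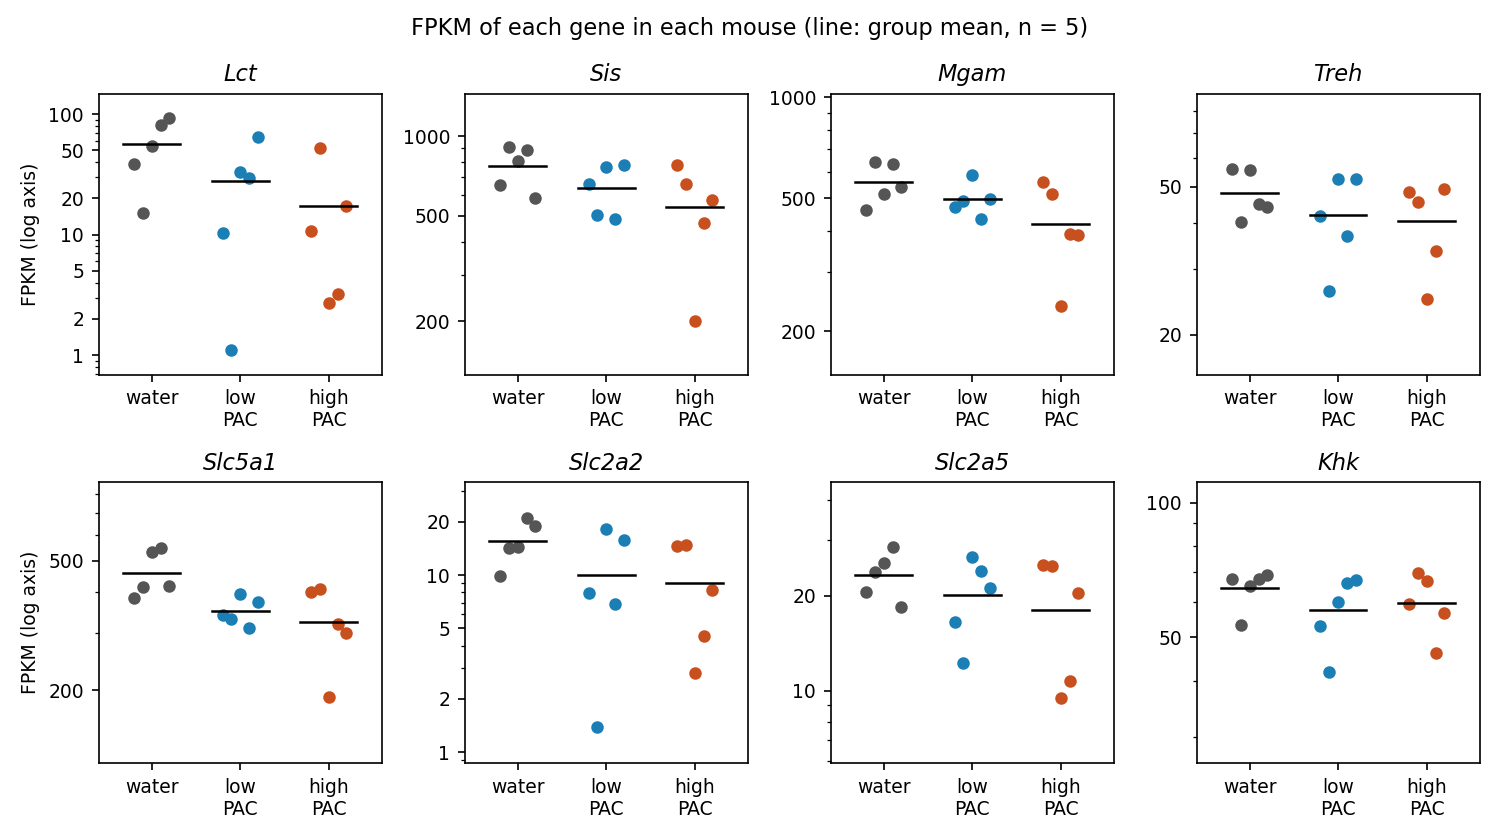
Level of each of the 8 genes (FPKM, log axis) in the 5 mice given water, low PAC or high PAC, where each point is 1 mouse and the line is the group mean. *Lct* spread most, from 1.10 to 92.69 FPKM, whereas *Khk* stayed between 41.86 and 69.54 FPKM, and the ranges of the 3 groups overlapped for every gene.

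Lactase (*Lct*, chromosome 1, 128284756 to 128328318, minus strand), which splits milk sugar into glucose and galactose, was measured at 38.33, 15.19, 54.84, 80.46 and 92.69 FPKM in the water mice. With low PAC the values were 10.39, 1.10, 32.95, 29.43 and 64.77 FPKM. With high PAC they were 10.67, 52.83, 2.68, 3.20 and 17.21 FPKM. Thus 3 high PAC mice and 2 low PAC mice lay below the lowest water mouse, and high PAC mouse 2 lay near the water mean. The high PAC mean was 17.3 ± 20.7 (SD, n = 5) against 56.3 ± 31.3 FPKM with water, a log2 fold change in counts of -1.77 (95% confidence interval -3.61 to 0.064), which did not pass the test across all genes (adjusted p = 0.352, edgeR) but had an exact permutation p of 0.0476 (two-sided, smallest possible 0.0079). This estimate was -1.47 without high PAC mouse 3 and -2.84 without high PAC mouse 2. With low PAC it was -1.08 (exact permutation p = 0.167), -1.66 without low PAC mouse 5 and -1.65 with limma. The exact permutation p, here and for the other genes, tests the difference in mean log2(FPKM + 0.1), not the edgeR estimate beside it. For *Lct* that difference was -2.28 with high PAC and -1.65 with low PAC. Within groups the highest mouse exceeded the lowest by 6.10 times with water, 58.9 times with low PAC and 19.7 times with high PAC, which was a larger spread than in any of the other 7 genes.

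Sucrase-isomaltase (*Sis*, chromosome 3, 72888557 to 72967863, minus strand), which cleaves sucrose and the branch points of starch fragments, had 655.89, 907.90, 807.69, 890.50 and 584.55 FPKM with water. The low PAC mice had 661.45, 502.73, 762.81, 487.58 and 778.90 FPKM and the high PAC mice 781.51, 662.23, 200.58, 471.05 and 574.97 FPKM. High PAC mice 3, 4 and 5 were below all water mice. Mean levels were 769 ± 144 with water, 639 ± 139 with low PAC and 538 ± 221 FPKM with high PAC. The log2 fold change with high PAC was -0.61 (95% confidence interval -1.19 to -0.037), with an unadjusted p of 0.0385 and an adjusted p of 0.312 (edgeR). Without high PAC mouse 3 it was -0.37, with an unadjusted p of 0.0682.

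Maltase-glucoamylase (*Mgam*, chromosome 6, 40628831 to 40769123, plus strand) releases glucose from the ends of starch fragments. It was measured at 462.19, 642.00, 513.16, 631.34 and 538.18 FPKM with water, at 470.75, 491.79, 585.44, 432.30 and 497.67 FPKM with low PAC and at 558.31, 513.34, 237.53, 390.89 and 389.31 FPKM with high PAC. Again mice 3, 4 and 5 of the high PAC group were lower than any water mouse, whereas 4 of the 5 low PAC mice lay within the water range. The log2 fold change with high PAC was -0.51 (95% confidence interval -0.90 to -0.12, unadjusted p = 0.0138, adjusted p = 0.261, edgeR), and -0.33 without high PAC mouse 3 (unadjusted p = 0.0312). With low PAC it was -0.22 (exact permutation p = 0.167).

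Trehalase (*Treh*, chromosome 9, 44673233 to 44686305, plus strand), the enzyme for the disaccharide of fungi and insects, had 55.83, 40.25, 55.47, 44.95 and 44.24 FPKM with water, 41.69, 26.24, 52.53, 36.80 and 52.39 FPKM with low PAC and 48.37, 45.54, 24.96, 33.58 and 49.52 FPKM with high PAC. Only 2 mice of each PAC group lay below the water range. The log2 fold change of -0.35 with high PAC and -0.26 with low PAC did not exceed the variation among mice (exact permutation p = 0.230 and 0.325). The first was -0.18 without high PAC mouse 3 and the second -0.14 without low PAC mouse 2.

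SGLT1 (*Slc5a1*, chromosome 5, 33104219 to 33162870, plus strand), the sodium-coupled carrier for glucose and galactose, gave the smallest p-values of the 8 genes in both comparisons with water. Its levels were 382.34, 414.33, 531.54, 544.81 and 416.56 FPKM with water, 339.13, 331.25, 395.38, 310.52 and 374.19 FPKM with low PAC, and 400.48, 409.92, 190.72, 319.69 and 299.52 FPKM with high PAC. Below the lowest water mouse lay 4 of 5 low PAC mice and 3 of 5 high PAC mice. Group means were 458 ± 74.7, 350 ± 34.2 and 324 ± 88.9 FPKM. The log2 fold change was -0.59 with high PAC (95% confidence interval -0.97 to -0.22), with an unadjusted p of 0.00421 and an adjusted p of 0.202 in edgeR and an exact permutation p of 0.0397. With low PAC it was -0.44 (95% confidence interval -0.82 to -0.068), where the same values were 0.0237, 0.976 and, by exact permutation, 0.0159. Neither passed the threshold over all genes. With DESeq2 in place of edgeR the adjusted p with high PAC was 0.0498, while it lay between 0.163 and 0.396 in the other 25 alternatives. Without high PAC mouse 3 the log2 fold change with high PAC was -0.42, with an unadjusted p of 0.00708 and an adjusted p of 0.334 in edgeR.

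GLUT2 (*Slc2a2*, chromosome 3, 28697903 to 28731359, plus strand), which lets monosaccharides out of the enterocyte, was the least abundant of the 8 genes. Its water values were 9.85, 14.18, 14.37, 20.95 and 18.85 FPKM, the low PAC values 7.93, 1.39, 18.11, 6.86 and 15.80 FPKM and the high PAC values 14.56, 14.71, 2.82, 4.56 and 8.24 FPKM. In both PAC groups 3 mice were below the water range and the other 2 were inside it. Its counts were between 62 and 934 per mouse. The log2 fold change was -0.89 with high PAC (95% confidence interval -1.98 to 0.20) and -0.70 with low PAC (-1.78 to 0.38), and neither passed a test (exact permutation p = 0.0952 and 0.135). They were -0.63 without high PAC mouse 3 and -0.42 without low PAC mouse 2.

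GLUT5 (*Slc2a5*, chromosome 4, 150119283 to 150144169, plus strand), the apical carrier for fructose, had 20.55, 23.81, 25.25, 28.53 and 18.37 FPKM with water, 16.45, 12.25, 26.52, 23.96 and 21.09 FPKM with low PAC and 24.92, 24.75, 9.47, 10.76 and 20.34 FPKM with high PAC. High PAC mice 3 and 4 had the 2 lowest values of all mice, and the other 3 were within the water range. The log2 fold change was -0.47 with high PAC and -0.28 with low PAC (exact permutation p = 0.238 and 0.317). It was -0.27 without high PAC mouse 3 and -0.15 without low PAC mouse 2.

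Ketohexokinase (*Khk*, chromosome 5, 30921431 to 30931248, plus strand) was measured at 67.45, 53.26, 65.21, 67.38 and 68.92 FPKM with water, 53.07, 41.86, 60.05, 66.09 and 67.28 FPKM with low PAC and 59.47, 69.54, 66.90, 46.06 and 56.80 FPKM with high PAC. Its log2 fold change was -0.21 with high PAC, the smallest of the 8 genes, and -0.22 with low PAC (exact permutation p = 0.397 and 0.238). With low PAC *Mgam* was about as small in edgeR (-0.2229 against -0.2181 for *Khk*). By the difference in mean log2(FPKM + 0.1) *Mgam* was the smaller (-0.165 against -0.175). Unlike the other 7 genes, *Khk* was not low in high PAC mouse 3. Both edgeR estimates of *Khk* were -0.13 when the mouse with the lowest *Khk* of its group, high PAC mouse 4 or low PAC mouse 2, was left out, and the high PAC estimate was -0.12 with limma.

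**Figure D2:**
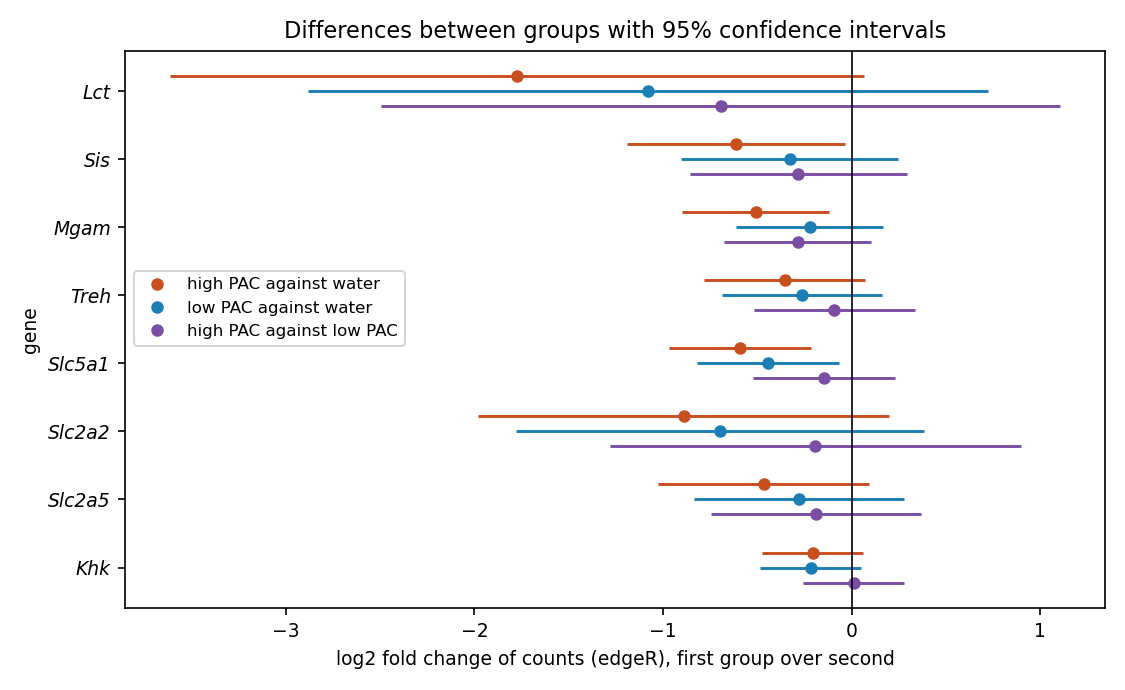
Log2 fold change in counts (x axis) of each of the 8 genes in the 3 comparisons, where points are edgeR estimates and bars 95% confidence intervals. All 16 estimates against water are below 0, and the interval leaves out 0 for *Sis*, *Mgam* and *Slc5a1* with high PAC and for *Slc5a1* with low PAC.

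With high PAC, 0 of the 8 genes passed an adjusted p of 0.05 in edgeR's quasi-likelihood test, where 0.0139% of all genes did. These were 2 genes, *Slc23a4* and *Slc28a2*. At an unadjusted p under 0.05, 3 of the 8 were lower (*Sis*, *Mgam* and *Slc5a1*) and 0 higher, against 14.8% of all genes in either direction, 10.4% lower and 4.37% higher. The split over all genes depends on the scaling, since 1500 genes were lower and 628 higher at this threshold with TMM normalization, and 816 lower and 1505 higher with upper-quartile normalization, under which 2 of the 8 genes remained (*Mgam* and *Slc5a1*). All 8 log2 fold changes were below 0, as were those of 49.5% of all genes, with a median of -0.55 over the 8 and 0.0024 over all genes. The medians were -0.35 and 0.015 without high PAC mouse 3, and 2 of the 8 genes (*Mgam* and *Slc5a1*) were lower at an unadjusted p under 0.05, against 5.62% of all genes. By the exact permutation test *Lct* and *Slc5a1* were lower at p under 0.05 and 0 were higher, as were 3.23% and 14.2% of all genes. Scaled to 10 epithelial reference genes, the mean difference in log2(FPKM + 0.1) was -2.26 in place of -2.28 for *Lct* and -0.51 in place of -0.53 for *Slc5a1*, with an exact permutation p of 0.0635 and 0.0556. The differences were thus about as large, while both p-values passed to the other side of 0.05. On the TPM scale *Mgam* was also lower (exact permutation p = 0.0476). In 0 of the 8 did the high PAC and water mice separate without overlap, whereas 0.646% of all genes were lower and 3.99% higher in every high PAC mouse than in every water mouse.

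With low PAC, 0 of the 8 genes passed the adjusted threshold, and 0.0% of all genes did. *Slc5a1* alone was lower at an unadjusted p under 0.05, against 3.61% of all genes in either direction, 2.21% lower and 1.4% higher. It was also the only one lower by the exact permutation test, where 1.27% of all genes were lower and 3.48% higher. None of the 8 separated without overlap, as 0.111% of all genes did downwards and 0.494% upwards. All 8 estimates were below 0, as for 54.5% of all genes, with a median of -0.30 over the 8 and -0.014 over all genes. The 2 comparisons share the water mice, so a water mouse that is high or low moves both. In each of 26 alternative fits all 8 estimates stayed below 0 in both comparisons. At an unadjusted p under 0.05, *Slc5a1* and *Mgam* were lower with high PAC in all 26 fits, *Sis* in 16 and *Lct* in 7, and *Slc5a1* was lower with low PAC in 22.

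Between the 2 PAC fractions, which were given at the same dose and over the same time, none of the 8 genes differed, and 0.0% of all genes passed the adjusted threshold. The high PAC to low PAC log2 fold change lay between -0.69 (*Lct*, 95% confidence interval -2.49 to 1.11) and 0.010 (*Khk*, -0.26 to 0.28). For *Slc5a1* it was -0.15 (-0.53 to 0.23), for *Sis* -0.28 (-0.86 to 0.29), for *Mgam* -0.29 (-0.68 to 0.10) and for *Slc2a2* -0.19 (-1.28 to 0.90). The estimate was below 0 in 7 of the 8 genes and in 48.6% of all genes. None of the 8 had an unadjusted p under 0.05, against 3.89% of all genes, 2.05% lower and 1.84% higher with high PAC, nor an exact permutation p under 0.05, against 0.799% lower and 3.7% higher, and none separated without overlap, as 0.0904% did downwards and 0.646% upwards. The adjusted p of the 8 genes ranged from 0.896 to 0.992 (edgeR). These intervals leave room for differences of either sign in all 8 genes, so the 2 fractions are not shown to act alike.

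**Figure D3:**
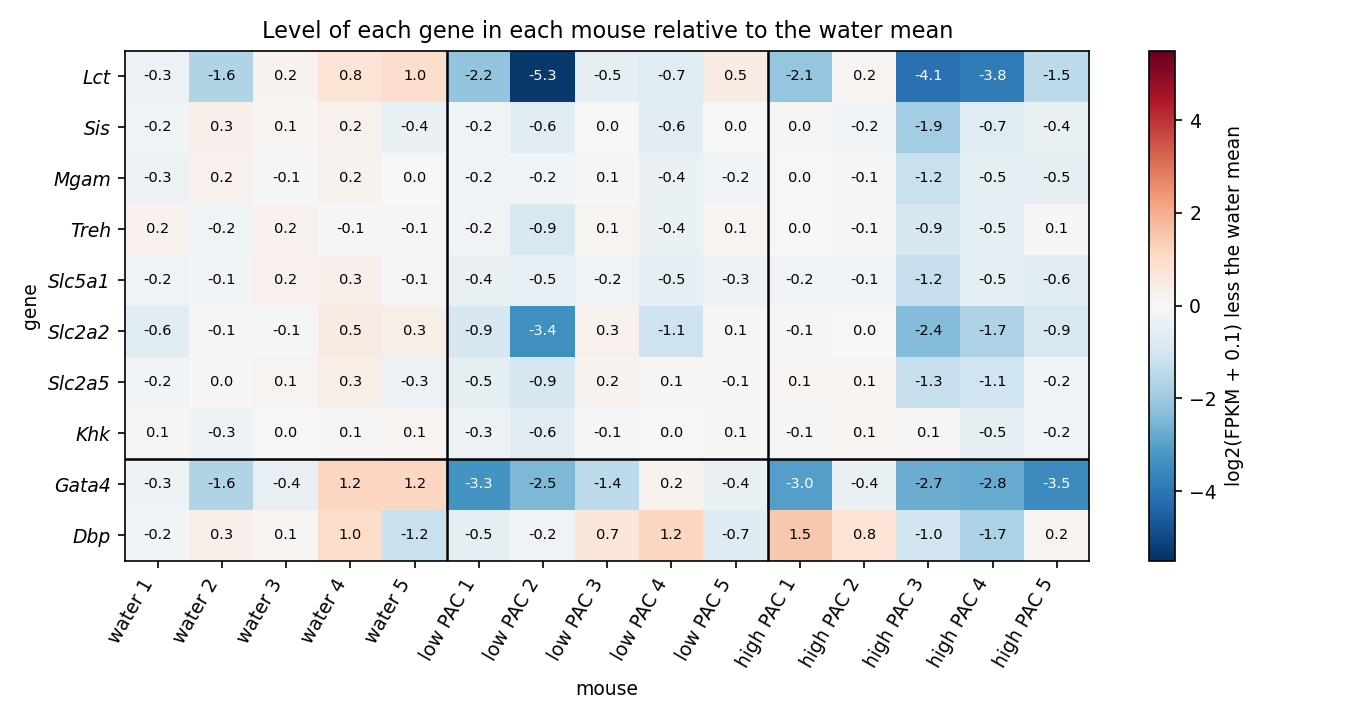
Level of the 8 genes, and of *Gata4* and *Dbp* below them, in each of the 15 mice as log2(FPKM + 0.1) less the water mean (colour and printed value). High PAC mice 3 and 4 and low PAC mouse 2 are blue over most rows, while high PAC mouse 2 and low PAC mice 3 and 5 are close to the water mean in the 8 genes.

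Low values were not spread evenly over the treated mice. High PAC mouse 4 lay below the lowest water mouse in all 8 genes, and high PAC mouse 3 and low PAC mouse 2 in 7 each. Low PAC mice 1 and 4 lay below it in 5 genes and high PAC mouse 5 in 4. The other 4 treated mice did so in at most 1 gene, and high PAC mouse 2 and low PAC mouse 3 in 0. The share of all genes below the lowest water mouse was not set beside these counts. The counts therefore do not single out the 8 genes from the rest of a library. Many of the 8 genes also varied together, so the counts are not independent. The mean deviation from the water mean over the 8 genes was -1.63 in high PAC mouse 3, -1.53 in low PAC mouse 2, -1.17 in high PAC mouse 4 and between -0.61 and 0.025 in the other treated mice, on the log2 scale. The summed level of the 8 genes was 1692 to 2309 FPKM with water, 1394 to 1934 FPKM with low PAC and 736 to 1898 FPKM with high PAC. In low PAC mouse 2, which had the lowest *Lct*, *Slc2a2* and *Khk* of all mice, the acute phase gene *Saa1* was measured at 165.41 FPKM, against at most 40.11 FPKM in the other 14 mice. *Saa1* was singled out after its values were seen, and its part in the low levels was not tested.

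In high PAC mouse 3, which had the lowest *Sis*, *Mgam*, *Treh*, *Slc5a1* and *Slc2a5* of all mice, short transcripts were high and long ones low. Relative to the median mouse, its 2178 genes under 1500 bases had a median log2 ratio of 0.469 and its 1292 genes over 6000 bases one of -0.252. The genes followed here were lower than that trend. Their log2 ratio to the median of the other 14 mice was -3.54 for *Lct* (6174 bases), -2.34 for *Slc2a2* (2571 bases), -1.72 for *Sis* (5953 bases), -1.25 for *Slc2a5* (3096 bases), -1.09 for *Mgam* (6488 bases), -1.03 for *Slc5a1* (3933 bases) and -0.858 for *Treh* (2050 bases). *Khk*, at 1461 bases the shortest of the 8, had 0.095. Where an offset for transcript length was added to the edgeR model, the high PAC estimates stayed between -1.71 (*Lct*) and -0.25 (*Khk*), 4 of the 8 genes were lower at an unadjusted p under 0.05 (*Sis*, *Mgam*, *Slc5a1* and *Khk*) and 0 passed the adjusted threshold. In that fit 7.55% of all genes were lower and 5.94% higher at an unadjusted p under 0.05.

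**Figure D4:**
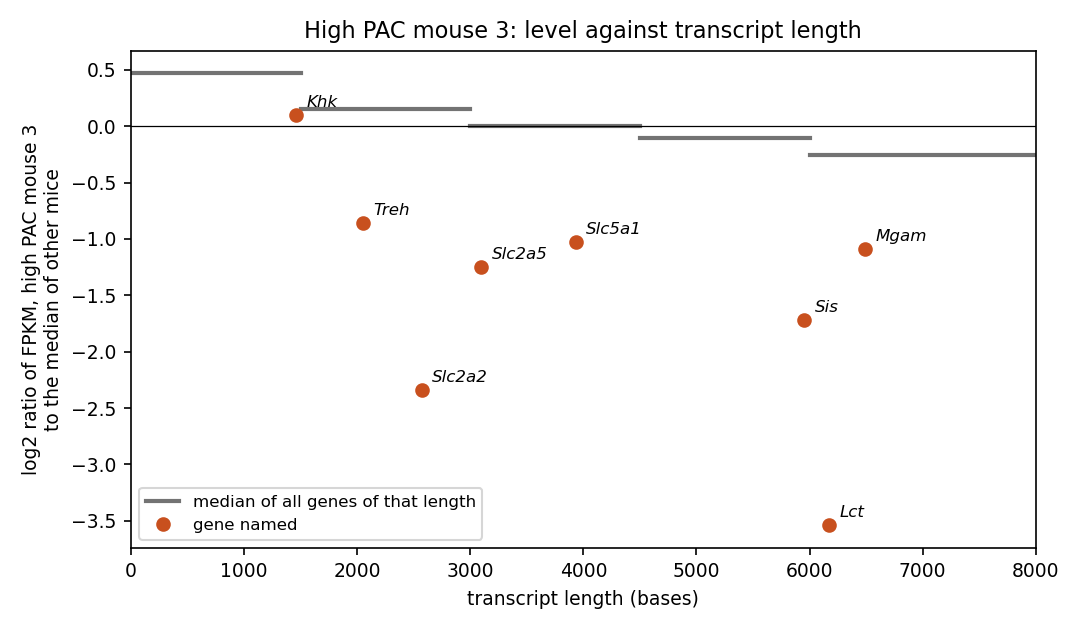
Log2 ratio of FPKM in high PAC mouse 3 (y axis) against transcript length in bases (x axis), where red points are the 8 genes relative to the median of the other 14 mice and grey lines are medians of all genes in 5 ranges of length relative to the median of all 15 mice. The grey lines fall from 0.469 to -0.252, and all 8 points lie below the line of their length, from -3.54 for *Lct* to 0.095 for *Khk*.

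To describe which genes varied together from mouse to mouse, log2(FPKM + 0.1) less the group mean was compared across the 15 mice for the 28 pairs of the 8 genes and for each gene with *Gata4*, *Cdx2* and *Dbp*, 52 relations in all. The values of a mouse share 1 library. Of the 28 pairs, 26 had a Pearson r above 0, the median r was 0.70, and 17 had an adjusted permutation p under 0.05, of which 8 also passed by Spearman's rho. *Sis* and *Mgam* gave the highest r (0.906, adjusted p = 0.014; rho 0.814, adjusted p = 0.0209), with an r of 0.712 once the 2 mice with the most extreme *Sis* were left out and 0.750 without high PAC mouse 3. *Lct* and *Slc2a2* followed a similar course (r = 0.872, adjusted p = 0.014; rho 0.818, adjusted p = 0.0209; r = 0.760 without the 2 farthest mice). *Sis* and *Slc5a1* had an r of 0.886 (rho 0.782, adjusted p = 0.0209), which was 0.691 without the 2 farthest mice. Over all 15 mice *Khk* varied apart from *Sis*, *Mgam* and *Slc5a1* (r = -0.048, -0.13 and 0.033, adjusted p by permutation between 0.900 and 0.953). Its r with *Lct* was 0.790 (adjusted p = 0.0176; rho 0.718, adjusted p = 0.0578; r = 0.627 without the 2 farthest mice, 0.958 without high PAC mouse 3). Without high PAC mouse 3 the r of *Khk* was 0.28 with *Sis*, 0.11 with *Mgam* and 0.36 with *Slc5a1*. It was 0.72 with *Treh*, 0.77 with *Slc2a2* and 0.73 with *Slc2a5* without that mouse, against 0.43, 0.57 and 0.46 over all mice. Without the 2 farthest mice the median r of the 28 pairs was 0.54. The r of *Mgam* with *Treh*, 0.496 over all mice (adjusted p = 0.236 by permutation), was then 0.064.

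**Figure D5:**
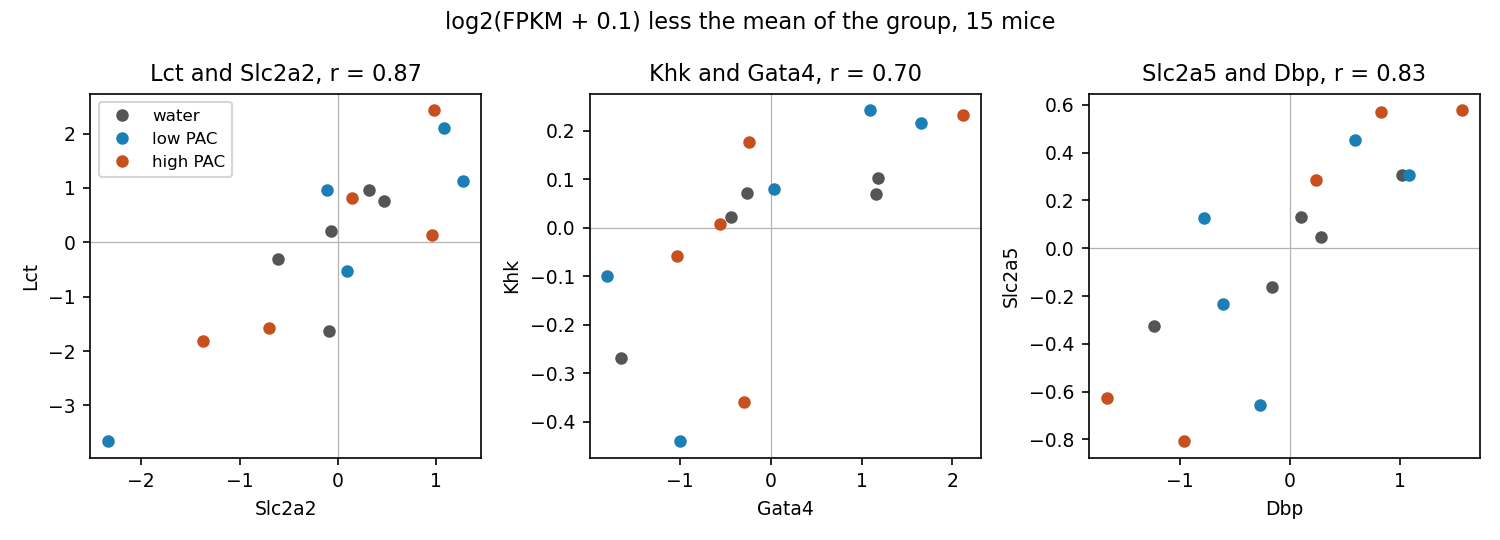
Deviation from the group mean, as log2(FPKM + 0.1), of *Lct* against *Slc2a2*, *Khk* against *Gata4* and *Slc2a5* against *Dbp* in the 15 mice, with points coloured by group. The points of all 3 groups run from lower left to upper right (r = 0.872, 0.699 and 0.828), and low PAC mouse 2 lies at the lower left end of the plot of *Lct* against *Slc2a2*.

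Among the regulators, *Gata4* encodes a factor that is known to maintain proximal identity in the small intestine, *Cdx2* a factor of the whole intestinal epithelium, and *Dbp* a factor whose level follows the time of day. *Gata4* was already among the genes that the study picked from these libraries. It was measured at 4.58, 1.69, 4.04, 12.46 and 12.67 FPKM with water, 0.48, 0.91, 1.97, 6.23 and 4.19 FPKM with low PAC and 0.58, 4.23, 0.75, 0.72 and 0.39 FPKM with high PAC. Within groups, *Khk* varied with *Gata4* (r = 0.699, adjusted p = 0.0296; rho 0.825, adjusted p = 0.0209; r = 0.848 without the 2 farthest mice), and so did *Lct* by Pearson's r (0.677, adjusted p = 0.0322; r = 0.610 without the 2 farthest mice) but not by rho after adjustment (0.675, adjusted p = 0.0578). *Sis* did not (r = -0.0041, adjusted p = 0.988). *Slc2a5* varied with *Dbp* (r = 0.828, adjusted p = 0.014; rho 0.871, adjusted p = 0.0209), with an r of 0.899 without the 2 farthest mice and 0.826 without high PAC mouse 3. *Cdx2* had no relation to any of the 8 genes after adjustment (r between -0.11 and 0.10).

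The genes whose course over the 15 mice was most like that of each gene were sought among 12421 genes averaging 1 FPKM or more, as a description without a test. *Lct* was followed most closely by *Slc5a4b* (r = 0.972), a member of the family of sodium glucose carriers, then by the water channel gene *Aqp1* (r = 0.961) and *Fam151a* (r = 0.960). *Slc5a4b* was at 2.05 FPKM in low PAC mouse 2 and 3.39 FPKM in high PAC mouse 3, where *Lct* was lowest, and at 24.2 FPKM in water mouse 5, where *Lct* was highest. For *Slc2a5* they were *Glyctk* (r = 0.959), which encodes glycerate kinase, an enzyme of fructose breakdown, the clock repressor gene *Cry2* (r = 0.940) and *Prr15* (r = 0.922). *Khk* was closest to *Ms4a10* (r = 0.937), *Cyp2c68* (r = 0.911) and the apolipoprotein gene *Apoc3* (r = 0.903). For *Treh* the closest were *Gdpd2*, *Map4k4* and *Cyp4b1* (r between 0.909 and 0.944) and for *Slc2a2* *Hoxa7*, *Cyp27a1* and *Cdr2* (r between 0.908 and 0.925). The likenesses of *Sis* (*Mertk*, *Slc25a51*, *Phlpp2*), *Mgam* (*D5Ertd579e*, *Tulp4*, *Mertk*) and *Slc5a1* (*D5Ertd579e*, *Edn3*, *Slc13a2*) rested partly on high PAC mouse 3, since their r of 0.896 to 0.949 was 0.716 to 0.872 without it.

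Other genes of sugar handling were described by 4 lists. In the list of 15 genes of fructose breakdown and gluconeogenesis, 7 were lower and 8 higher with high PAC, near the 49.5% of all genes that were lower, and the summed level ranged from 1959 to 2196 FPKM over the 15 mice. At an unadjusted p under 0.05, the pyruvate kinase gene *Pklr* was lower (log2 fold change -0.34, SE 0.12), and *Aldoa* (0.26) and *Pck2* (0.22) were higher, while *Tkfc*, the next enzyme of fructose breakdown, was at 76.4 ± 6.69 FPKM with water and 73.4 ± 10.4 FPKM with high PAC. Of 9 genes in the list of galactose and polyol metabolism, 4 were lower. Among them were the gene listed under the symbol *Pgm1* (-0.47, SE 0.095, unadjusted p = 0.00015, adjusted p = 0.133, edgeR) and *Galm* (-0.30, SE 0.093), and *Akr1b3* was higher (0.25). Which phosphoglucomutase the symbol *Pgm1* stands for was not checked. Of 14 other hexose transporters tested, 10 were lower, *Slc5a9* (-0.52), *Slc5a11* (-0.61) and *Slc2a7* (-0.94) at an unadjusted p under 0.05 (1 of the 14 without high PAC mouse 3), whereas the ubiquitous glucose carrier *Slc2a1* was at 8.55 ± 0.66 FPKM with water and 8.96 ± 1.59 FPKM with high PAC. Of 9 other glycosidases, 5 were lower, and 3 without high PAC mouse 3. Over these lists the genes lower at an unadjusted p under 0.05 are to be read against 10.4% of all genes. Without high PAC mouse 3 that share was 5.62%, and 46.0% of all genes were below 0. With low PAC, 0 genes of these 4 lists had an unadjusted p under 0.05 (2 in the model without high PAC mouse 3), and 0 passed the adjusted threshold in either comparison. *Aldoa*, *Pck2* and *Akr1b3* were named after their values were seen.

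Among 27 regulators of intestinal sugar genes that were tested, 22 were lower with high PAC, 8 of them at an unadjusted p under 0.05, against 49.5% and 10.4% of all genes. They include *Gata4* (-2.48, SE 0.76, adjusted p = 0.211, edgeR), *Gata6* (-0.26), *Hnf4a* (-0.25) and *Prdm1* (-0.68, SE 0.14, adjusted p = 0.133), a repressor that marks the suckling intestine. *Cdx2* (0.0061) and the carbohydrate response genes *Mlxipl* (-0.23) and *Txnip* (-0.070) had unadjusted p-values between 0.182 and 0.962. With low PAC, 17 of the 27 were lower, against 54.5% of all genes, and *Prdm1* (-0.39) was the only one lower at an unadjusted p under 0.05, near the 2.21% of all genes. The incretin precursor gene *Gcg*, named after its value was seen, was higher at that threshold with high PAC (0.45) and with low PAC (0.32), as were 4.37% and 1.4% of all genes. Without high PAC mouse 3, 21 of the 27 were lower with high PAC, 4 of them at an unadjusted p under 0.05, against 46.0% and 5.62% of all genes.

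Genes of the enterocyte surface and of the proximal small intestine lay lower as well. Over all genes, 49.5% were below 0 with high PAC and 10.4% were lower at an unadjusted p under 0.05, and 54.5% and 2.21% with low PAC. Of 20 brush border genes, 20 were lower with high PAC, 13 at an unadjusted p under 0.05 (median log2 fold change -0.37), and 20 with low PAC, 1 at that threshold (median -0.17). Without high PAC mouse 3, 20 were still lower with high PAC, 10 of them at an unadjusted p under 0.05 (median -0.19), against 46.0% and 5.62% of all genes. With low PAC the model without that mouse gave 20 lower and 7 at the threshold, against 47.3% and 2.73% of all genes. The sodium proton exchanger gene *Slc9a3* was at 5.41 ± 2.34 FPKM with water and 2.23 ± 1.11 FPKM with high PAC (-1.36, SE 0.34, adjusted p = 0.180, edgeR), and the differentiation marker *Krt20* at 846 ± 90.1 and 675 ± 90.7 FPKM (-0.42, SE 0.12). Of 18 proximal genes tested, 15 were lower with high PAC, 10 at an unadjusted p under 0.05, among them the cholesterol carrier gene *Npc1l1* (-0.98, SE 0.21, adjusted p = 0.133, edgeR) and *Ada* (-0.89, SE 0.20, adjusted p = 0.142). With low PAC 16 of the 18 were lower, 6 of them at an unadjusted p under 0.05, and *Scd2*, named after its value was seen, was higher (0.62). Of 20 distal genes, 17 were lower with high PAC and 10 with low PAC, the latter near the share of all genes, with *Clec2h* (-0.47) and *Slc7a9* (-0.34) having the smallest p-values with high PAC. In 10 genes of the whole epithelium, 8 were lower, *Cdh17* (-0.35) and *Vil1* (-0.33) at an unadjusted p under 0.05, and their summed level was 7219 to 8646 FPKM with water and 7544 to 8767 FPKM with high PAC. None of these genes passed the adjusted threshold, which 0.0139% of all genes did. Leaving out high PAC mouse 3, 15 of the 18 proximal genes were lower, 9 at an unadjusted p under 0.05, and *Npc1l1* passed the adjusted threshold (log2 fold change -0.76, adjusted p = 0.0191, edgeR), while 13 of the 20 distal genes were lower. In that fit 46.0% of all genes were below 0, 5.62% were lower at an unadjusted p under 0.05 and 3 of 14386 passed the adjusted threshold.

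Marker genes of other cell types were compared in the same mice, and none passed the adjusted threshold. Over all genes 49.5% were below 0 with high PAC, and at an unadjusted p under 0.05 10.4% were lower and 4.37% higher (1500 and 628 genes, or 816 and 1505 with upper-quartile normalization), while with low PAC 54.5% were below 0. Of 10 crypt and proliferation genes, 10 were higher with high PAC, among them *Cdk1* (0.35), *Ccnb1* (0.33) and, named after its value was seen, *Smoc2* (0.23) at an unadjusted p under 0.05, and their summed level was 374 to 481 FPKM with water, 380 to 508 FPKM with low PAC and 418 to 676 FPKM with high PAC. All 10 smooth muscle genes were higher in both PAC groups, 0 of them at an unadjusted p under 0.05, such as *Tagln* (0.48) and *Myl9* (0.51) with high PAC, with a summed level of 419 to 1325, 837 to 1448 and 1015 to 1580 FPKM, and the 2 lowest sums were those of water mice 1 and 3. The neuron gene *Tubb3* (0.79) and the mesothelial genes *Msln* (1.16) and *Rspo1* (0.99) were higher with high PAC, *Tubb3* at an unadjusted p under 0.05. B cell genes of Peyer's patches, such as *Ms4a1*, summed to 8.13 to 172.1 FPKM with water, 8.49 to 85.75 FPKM with low PAC and 6.27 to 253.5 FPKM with high PAC. Of the 15 clock genes, 11 were lower with high PAC, with *Clock* (-0.20) and *Nr1d1* (-0.35) having the smallest p-values. *Cela1* was the only pancreatic gene tested (0.19), and of 6 colon genes tested *Car4* was lower (-0.52) and *Slc12a2* higher (0.24) at an unadjusted p under 0.05. When high PAC mouse 3 was left out, 9 of the 10 crypt genes were higher, 1 at an unadjusted p under 0.05, 9 of the 10 B cell genes were lower instead of 3, and 8 of the 15 clock genes were lower. In that fit 46.0% of all genes were below 0, and at an unadjusted p under 0.05 5.62% were lower and 5.28% higher. The crypt count at the threshold and the clock count are near these shares. The part of any of these in the levels of the 8 sugar genes was not tested. Without water mouse 1 the 8 genes were all lower with high PAC and 3 had an unadjusted p under 0.05, and without water mouse 3 all were lower and 2 had, where 47.7% and 48.3% of all genes were below 0 and 7.1% and 7.54% were lower at that threshold.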

How the data were processed

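RNA of the ileum of 15 mice (5 per group) was sequenced by the authors, and per sample a table of expected counts and FPKM per gene was deposited. The expected counts, which the authors estimated per gene and which are not normalized, were whole in 88.6 to 89.5% of genes and were rounded here. The FPKM were computed by the authors from those estimates and are listed down to 0.01. The submitters' processing notes name HISAT, DESeq2 and the mouse build mm10, whereas the study's methods name Bowtie2, so the aligner is uncertain. Libraries held 15963086 to 17903886 counts, and no pair of libraries was a duplicate.

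Counts were tested with edgeR 4.0.16 in R 4.3.3 (TMM scaling, filterByExpr, quasi-likelihood test, 1 model of all 15 mice with 3 contrasts, Benjamini-Hochberg adjustment over 14386 genes, threshold 0.05). For the 8 genes, log2(FPKM + 0.1) was in addition tested by exact permutation (two-sided, 252 splits of 5 against 5 mice). The 52 relations between genes used 100000 permutations of mice within groups. Alternatives used DESeq2 1.42.0 and limma 3.58.1, other scalings, filters and pseudocounts, and left out each mouse. Scripts were tested on simulated data. Genes and gene lists were chosen with earlier results of these data known. The text names the 8 genes, a few fixed regulators and the 2 genes of each list with the smallest p with high PAC, and others where it says so. Some genes of the lists are counted but not reported by name here. Upstream sequences are from RefSeq (GRCm38.p6) and gene coordinates from GENCODE (GRCm38). Replicate numbers did not pair the mice, since same-numbered mice correlated in their deviations at -0.307 to 0.445, above 0.1 in 5 of 15 pairs.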

Additional observations from a re-analysis of the deposited data

Results flagged for a closer look

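Of 24 groups of 5 values (8 genes in 3 groups), 2 held a mouse far from the other 4, where chance gives about 1 in 20. *Lct* in high PAC mouse 2 was 52.83 FPKM, against 2.68 to 17.21 FPKM in the other 4 high PAC mice. *Khk* in water mouse 2 was 53.26 FPKM, against 65.21 to 68.92 FPKM in the other 4 water mice. Without high PAC mouse 2 the log2 fold change of *Lct* between high PAC and water was -2.84 (adjusted p = 0.229, edgeR), and 6 of the 8 genes were then lower at an unadjusted p under 0.05, as were 1390 of all 14386 genes.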

How the results depend on the processing

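With high PAC against water the number of genes past the adjusted threshold was 2, and it was 167 with DESeq2, 9 with limma on log2(FPKM + 0.1) and on log2(FPKM + 1), 5 with limma without a filter, 4 with only the 2 groups in the model and 2 to 11 when 1 mouse was left out. Of the 8 sugar genes 1 passed with DESeq2 (*Slc5a1*) and 0 otherwise. At an unadjusted p under 0.05, 3 sugar genes were lower with high PAC, 6 without high PAC mouse 2, 5 without low PAC mouse 2 and 2 with the block, where 1500, 1390, 1470 and 1278 of all 14386 genes were lower. With low PAC it was 0 genes, 2 with DESeq2 and 0 to 1 when 1 mouse was left out. The cause of these differences was not tested. With the replicate number as a block, 2 genes passed with high PAC and 0 with low PAC, and no sugar gene did. Between the PAC fractions the sign of small estimates turned. *Slc2a2* was 0.0062 with limma with and without the filter, and -0.033 and -0.0706 as a difference of log2(FPKM + 1) and log2(TPM + 0.1), and *Khk* was -0.047 with the length offset and -0.024 with log2(TPM + 0.1). Leaving out 1 mouse gave -0.21 to 0.054 for *Treh*, -0.26 to 0.0068 for *Slc5a1*, -0.47 to 0.14 for *Slc2a2* and -0.073 to 0.084 for *Khk*. Depth limits *Lct* and *Slc2a2* most, with 120 and 62 counts in low PAC mouse 2. The length offset, the TPM scale and the correlations without high PAC mouse 3 were chosen after seeing the data.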
